A study of Mus musculus with 6 samples.

Results

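The genes of the cytosolic ribosomal proteins were examined in bulk mouse liver RNA. Members were the rows of the count table whose symbol is Rpl or Rps followed by a number, with or without the suffix a, x, l or l1, or is Rpsa, Rplp0, Rplp1 or Rplp2. This gave 84 of 35977 genes, 52 of the large and 32 of the small subunit. All mice had been given Cre recombinase on an adeno-associated virus of serotype 9 (AAV9), under the promoter of Tnnt2, the troponin T gene of heart muscle. In 3 libraries the vector was AAV9-Tnnt2-Cre (Cre, replicates 10, 11 and 12). In the other 3 it also carried target sites of miR-122, a microRNA abundant in hepatocytes (Cre-miR122, replicates 1, 2 and 4). The comparison asked what the vector with the added sites does in the liver. The labels give no strain, age, sex, dose or time after injection, and no library of an uninjected liver was analysed here. Whether each library is a different animal is not in the labels either, so a p-value here reflects only how these samples scatter, which may be technical.

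Each ribosome holds ribosomal RNA and a set of small, mostly basic proteins, nearly all of them needed in equal amounts. Their messenger RNAs belong to the TOP class, named for a tract of C and T bases at the very start of the transcript, through which the mTORC1 kinase and the RNA-binding protein Larp1 control their translation. In liver, whose main cells secrete the plasma proteins, ribosome supply follows feeding, growth and regeneration. The family has many processed pseudogenes, and the sources used here do not give how reads with several matches were counted, so the counts of members with near-identical copies are uncertain.

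RefSeq lists start sites (build GRCm38.p6) for 63 of the 84 members, in 75 entries. The 30 bases around the annotated start, 15 on each side, are shown for the 5 members with the lowest and the 5 with the highest fold change among tested members with 1 entry, a choice made after the values were known. Capitals mark the longest run of C and T in the window, on the sense strand.
Rpl36a, chrX:134585639-134585668, plus strand: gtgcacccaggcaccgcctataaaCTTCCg
Rpl31, chr1:39367836-39367865, plus strand: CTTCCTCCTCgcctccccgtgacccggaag
Rps23, chr13:90923107-90923136, plus strand: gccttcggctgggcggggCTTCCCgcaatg
Rps28, chr17:33824548-33824577, minus strand: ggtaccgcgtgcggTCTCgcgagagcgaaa
Rpl28, chr7:4792950-4792979, plus strand: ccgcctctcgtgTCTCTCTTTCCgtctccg
Rps2, chr17:24720048-24720077, plus strand: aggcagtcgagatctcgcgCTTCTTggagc
Rpl9, chr5:65391417-65391446, minus strand: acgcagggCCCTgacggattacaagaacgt
Rpl5, chr5:107900513-107900542, plus strand: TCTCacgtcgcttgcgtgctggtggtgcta
Rps3, chr7:99483695-99483724, minus strand: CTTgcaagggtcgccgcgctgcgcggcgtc
Rps4x, chrX:102189377-102189406, minus strand: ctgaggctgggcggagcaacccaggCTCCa

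A run of C and T of at least 6 bases lay in this window in 40 of the 75 member entries (53.3%) and in 29.2% of all 32851 entries. Runs of at least 8 bases were in 38.7% of the member entries and 12% of all. In the full 300 bases, searched on both strands, CTCTTTC was in 26.7% of member entries and 8.16% of all, CTTTCC in 49.3% and 26.6%, CCGGAAGT (a core bound by ETS factors) in 16.0% and 3.89%, GCCATCTT (a core bound by Yy1) in 10.7% and 2.75%, and TATAAA in 10.7% and 13.6%. The motifs CTCTTTC and CTTTCC can overlap. The annotated start may differ from the one used in liver. The 37 tested members with a run of at least 6 bases had a median log2 fold change (Cre-miR122 minus Cre) of -0.16 and the 22 without one -0.15. The run can lie anywhere in the window, also before the start, so this split does not divide members by a TOP start.

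The libraries were checked against their labels and for depth. Total counts ran from 20340994 to 20817837. Summed levels of 10 hepatocyte markers, none of them at 0, ran from 152439 to 184775 CPM (read counts scaled by library size) with Cre and from 179500 to 183123 CPM with Cre-miR122. Of 10 muscle and heart markers Myh7, Actc1 and Myl2 were at 0 in every library, and the sum of the list was at most 2.39 CPM. Cre replicate 10 alone had counts of the Y-linked gene Ddx3y (1676, against at most 1 elsewhere). No gene of the 14374 tested was called by the edgeR quasi-likelihood test at an adjusted p under 0.05 (0.0% called, smallest adjusted p = 0.816) or by limma-voom, and DESeq2 called 3, none a member. By edgeR 381 lower (2.65%) and 397 higher genes had an unadjusted p under 0.05.

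Ribosomal protein genes took a larger share of the counts in Cre replicate 11 than in any other library. The share of all counts was 1.357% in Cre replicate 10 (exact 95% binomial interval 1.352% to 1.362%), 1.668% in replicate 11 (1.662% to 1.673%) and 1.287% in replicate 12 (1.282% to 1.292%). With Cre-miR122 it was 1.366% in replicate 1 (1.361% to 1.371%), 1.278% in replicate 2 (1.273% to 1.283%) and 1.213% in replicate 4 (1.208% to 1.218%). These intervals cover counting error only. The group means were 1.44 ± 0.203% and 1.29 ± 0.0769% (SD, n = 3 each), and the groups overlapped, since Cre-miR122 replicate 1 stood above Cre replicates 10 and 12. Both subunits had this order, with the large subunit at 1.03% and the small at 0.643% of counts in Cre replicate 11 and at 0.747% and 0.466% in Cre-miR122 replicate 4. In bulk tissue fewer cells with a transcript and less of it per cell cannot be told apart.

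**Figure D1:**
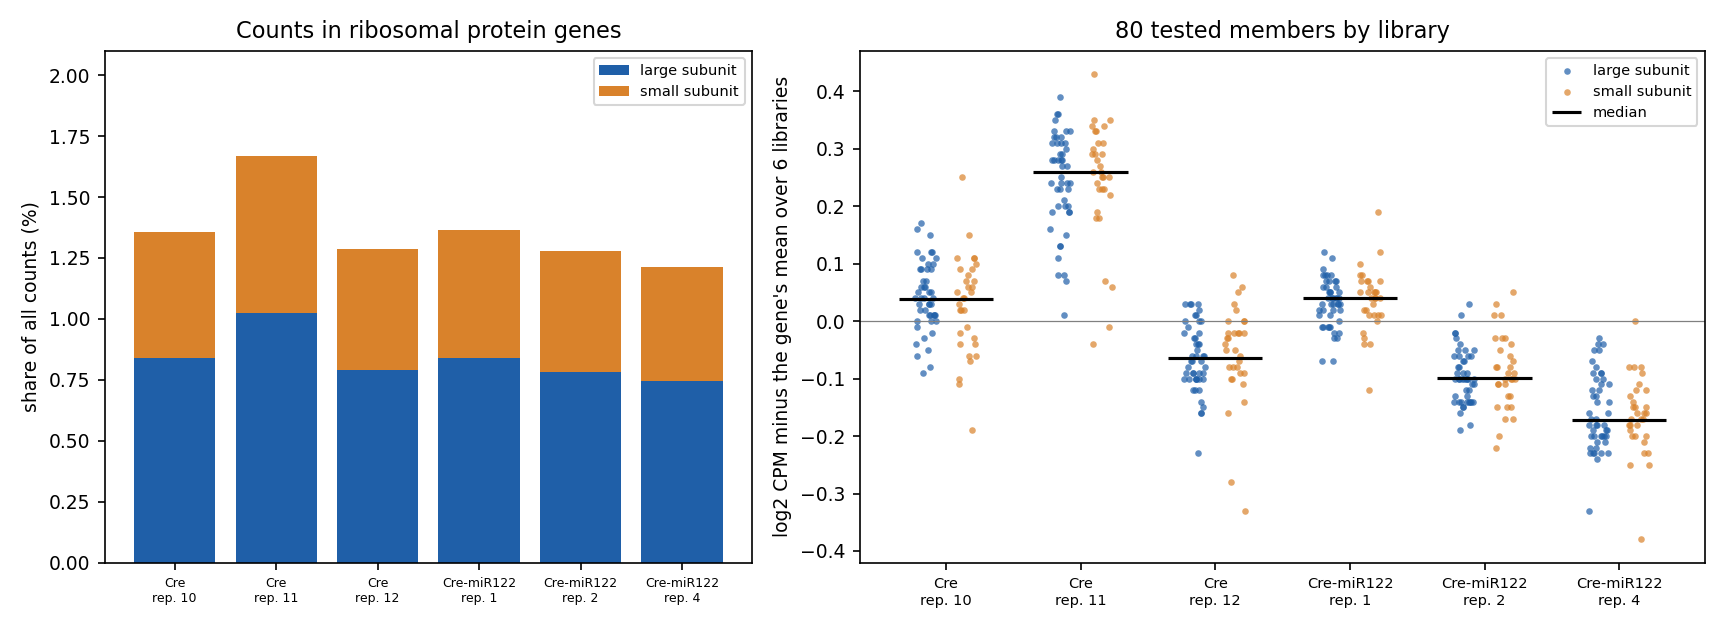
Left, share of all counts (%) in genes of the large and small subunit in each library. Right, log2 CPM of each of the 80 tested members minus that gene's mean over the 6 libraries (points), with the median as a line. Nearly all points of Cre replicate 11 lie above 0, around a median of 0.26, and none of Cre-miR122 replicate 4 does, around a median of -0.17.

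Of the 84 members 80 passed the filter on low counts, and all 80 had a log2 fold change below 0, where 50.6% of all tested genes did. None was called lower or higher by edgeR, DESeq2 or limma-voom at an adjusted p under 0.05, beside 0.0% of all tested genes by edgeR. By edgeR 3 of them, Rps23 and Rpl35a included, had an unadjusted p under 0.05 on the lower side, beside the 2.65% of all tested genes. The median was -0.16, beside -0.0029 over all tested genes, and the values ran from -0.27 for Rpl36a to -0.0054 for Rps4x. The groups did not overlap for 2 of the 80, Rps24 (named after its values were seen) included, beside 5.45% of all tested genes. For 16 members the fold change was smaller than its own standard error, and for 8 it was more than 2 standard errors. Standard errors ran from 0.076 to 0.16.

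Cre replicate 11 was the highest of the 6 for 75 of the 80 tested members, against 24.3% of all tested genes. Cre-miR122 replicate 4 was the lowest for 64 members, against 17.5% of all tested genes. The median deviation from the mean of the 6 libraries (log2) was 0.039, 0.26 and -0.063 in Cre replicates 10, 11 and 12 and 0.040, -0.098 and -0.17 in Cre-miR122 replicates 1, 2 and 4. Cre replicate 10 and Cre-miR122 replicate 1 stood at nearly the same level. Without Cre replicate 11 the median log2 fold change was -0.067, 68 of 80 members lay below 0 (beside 50.3% of all genes tested then) and 0 had an unadjusted p under 0.05. Without Cre replicate 12 that last count was 33 (beside 5.03% of all tested genes), and without Cre-miR122 replicate 1 it was 18 (beside 3.56%), with 0 called in either case.

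**Figure D2:**
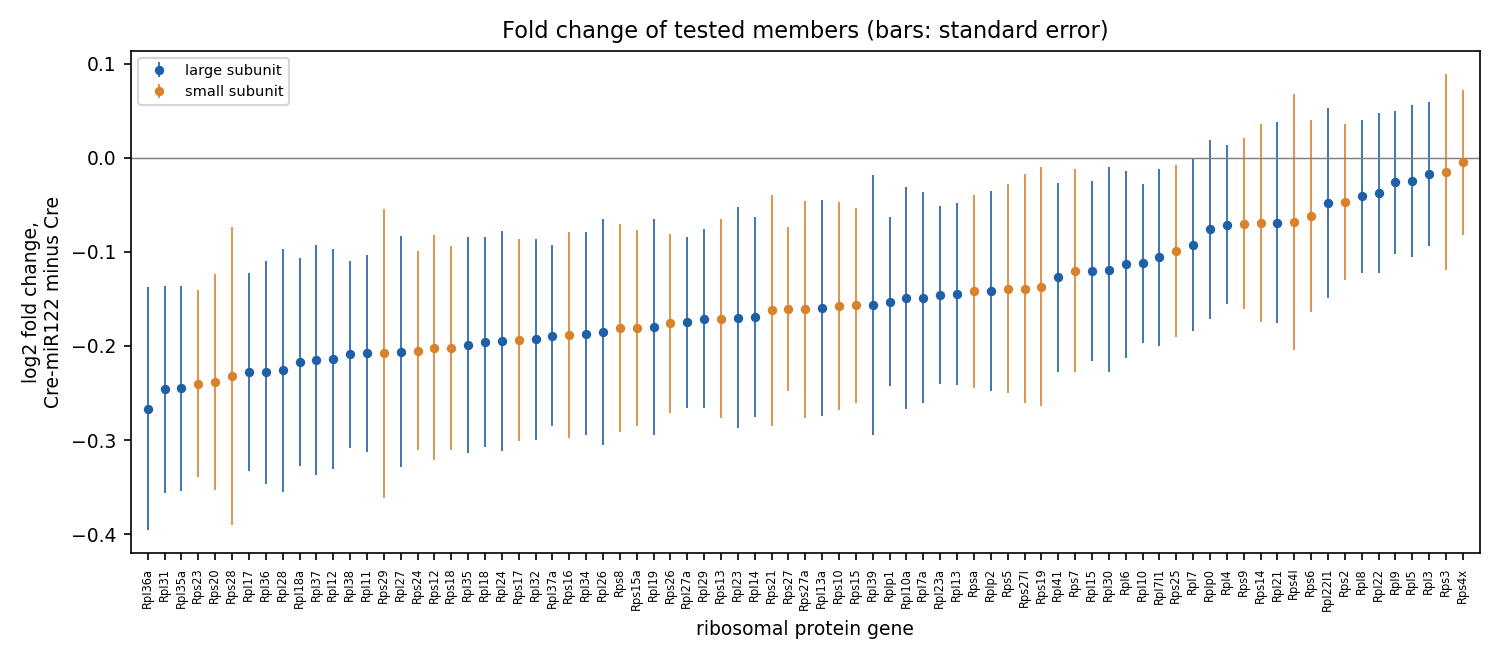
Log2 fold change (Cre-miR122 minus Cre) of each tested member except 1, in order, with its standard error as a bar and the subunit as colour. All points lie below 0, from -0.27 for Rpl36a to -0.0054 for Rps4x, and the colours mix along the order.

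The 48 tested large-subunit genes had a median log2 fold change of -0.16 and the 32 small-subunit genes also -0.16. Within the small subunit, Rps23, whose protein sits at the decoding centre, was at 126, 140 and 115 CPM in Cre replicates 10, 11 and 12 and at 118, 102 and 103 CPM in Cre-miR122 replicates 1, 2 and 4 (the order used throughout), a log2 fold change of -0.24 with SE 0.099 and an edgeR adjusted p of 0.816. Here the highest Cre-miR122 library lay above the lowest Cre library. Rps28 and Rps29, which encode some of the smallest ribosomal proteins, varied most across the libraries. Rps28 ran from 35.01 CPM in Cre replicate 12 to 57.2 CPM in Cre replicate 11, the whole range being within one group, and its log2 fold change was -0.23 (SE 0.16). Rps29 had the same highest and lowest libraries, at 62.3 and 39.1 CPM.

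Of the small-subunit members with roles beyond the ribosome, Rps6, the substrate of S6 kinase and a readout of mTORC1 activity at the protein level, was at 224, 269.5 and 217 CPM with Cre and 240, 227 and 214 CPM with Cre-miR122, a log2 fold change of -0.062 (SE 0.10). Rpsa, also known as a laminin receptor, was at -0.14 (SE 0.10), and Rps27a, which encodes ubiquitin fused to a ribosomal protein, at -0.16 (SE 0.12). Rps3, at the entry of the messenger RNA channel, was at -0.015 (SE 0.10) and had its lowest and highest levels within the Cre group, 195 CPM in replicate 10 and 252 CPM in replicate 11. Without Cre replicate 11 Rps6 stood at 0.041 and Rps3 at 0.078.

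Rps4x varied little and did not share the high level of Cre replicate 11. This X-linked gene (chrX:102184941-102189391, minus strand, GRCm38) encodes a small-subunit protein and stood at 256, 260 and 272 CPM with Cre and 270, 253 and 262 CPM with Cre-miR122. Its SD over the 6 libraries was 0.041 on the log2 scale, and its highest library was Cre replicate 12, not 11. Across the 6 libraries its correlation with the median of the other members was -0.030, the lowest of all, where 58 of the 80 members had one over 0.9. Both depended on single libraries. Without Cre replicate 11, 35 members had one over 0.9 and Rpl5 was the lowest (-0.26), and without Cre-miR122 replicate 4 Rps4l was the lowest (-0.43). Pairs of members had a median correlation of 0.89 over the 6 libraries and of 0.75 without Cre replicate 11. These values describe 6 shared libraries and a common depth. The 4 X-linked members, Rps4x, Rpl10, Rpl36a and Rpl39, had a median deviation of 0.051 in Cre replicate 10, the library with Y-linked counts, close to the 0.039 of all tested members.

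In the large subunit, the lowest fold changes were those of Rpl36a, Rpl31 and Rpl35a. Rpl36a (chrX:134585654-134588062, plus strand) was at 58.2, 68.7 and 50.3 CPM with Cre and 53.2, 51.6 and 42.4 CPM with Cre-miR122, a difference of -0.27 on the log2 scale (SE 0.13). Rpl31, whose protein lies near the exit of the peptide tunnel, was at -0.25 (SE 0.11), and Rpl35a, a gene mutated in some patients with Diamond-Blackfan anaemia, at -0.25 (SE 0.11). In all 3 genes Cre replicate 11 was the highest library and Cre-miR122 replicate 4 the lowest. Rpl28 spanned 161 to 239 CPM and had a log2 fold change of -0.23 (SE 0.13).

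Rpl3, whose protein reaches towards the peptidyl transferase centre (chr15:80077781-80083406, minus strand) was at 354, 357 and 359 CPM with Cre and 365, 349 and 343 CPM with Cre-miR122, a log2 fold change of -0.017 (SE 0.077). Its SD over the libraries, 0.032 on the log2 scale, was the lowest of all tested members, whose median was 0.16, the same as that of all tested genes. Rpl4, which lines the peptide tunnel, was at -0.071 (SE 0.084), and Rpl10, a late-joining protein needed before the subunits meet, at -0.11 (SE 0.084). Rpl5 and Rpl11 encode the pair of proteins that bind the smallest ribosomal RNA and, when unassembled, the p53 regulator Mdm2. Rpl5 was at -0.025 (SE 0.081) and Rpl11 at -0.21 (SE 0.10). The stalk that recruits elongation factors is built from Rplp0, Rplp1 and Rplp2, which were at -0.076 (SE 0.095), -0.15 (SE 0.090) and -0.14 (SE 0.11). Rplp0 had its lowest Cre library at 344 CPM and its lowest Cre-miR122 library at 343 CPM. Rpl41, the member with the shortest coding length (138 bases, the longest of its annotated coding sequences), was at -0.13 (SE 0.10).

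Levels of the tested members spanned 21.2 to 622 CPM, with a median of 148 CPM. Per kilobase of exon sequence the highest were Rps2 (622 CPM per kilobase), Rpl10 (513), Rps18 (472), Rpl4 (406) and Rplp1 (396). The lowest were Rps15a (16.2 CPM per kilobase), Rps4l (22.5), Rpl7l1 (26.3), Rpl22 (35.2) and Rps20 (36.8). Exon length here joins the exons of all transcripts of a gene, 5136 bases for Rps15a and 3446 for Rps20, against coding sequences of 390 and 357 bases, so these levels are understated for such genes. Rps2, whose protein lies at the entry of the messenger RNA channel, was at 619, 654 and 623 CPM with Cre and 626, 627 and 582 CPM with Cre-miR122. Its order did not separate the groups (log2 fold change -0.047, SE 0.083).

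Members with a shorter coding sequence had lower fold changes. Coding length was the longest coding sequence listed for a gene in GENCODE M21, found for 79 of the 80 tested members. The 26 shortest (138 to 399 bases) had a median log2 fold change of -0.18, the 27 in the middle (405 to 582 bases) -0.19 and the 26 longest (582 to 1257 bases) -0.11. Across these 79 genes the correlation of fold change with log2 coding length was 0.50 (Pearson's r) and 0.50 (Spearman's rho), and without Cre replicate 11 it was 0.32 and 0.38. Genes are not independent replicates, and coding length also went with log2 CPM (r = 0.81). The sign of this relation differed between libraries of one group. The deviation was higher for shorter members in Cre replicates 10 and 11 (r = -0.62 and -0.51) and lower for them in Cre replicate 12 (r = 0.65), and r ran from 0.23 to 0.32 in the 3 Cre-miR122 libraries.

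Other short genes put the libraries in the same order as the members under 600 bases did. In the whole family Cre replicate 10 and Cre-miR122 replicate 1 stood level instead. Among 228 tested genes outside the family with under 600 bases of exon sequence, the median deviation was 0.098, 0.20 and -0.051 in Cre replicates 10, 11 and 12 and 0.048, -0.073 and -0.17 in Cre-miR122 replicates 1, 2 and 4. Their median log2 fold change was -0.15, with 80.7% below 0. For 5903 genes of 4000 bases or more it was 0.033. The 24 members under 600 bases had a median of -0.19 and a median deviation of 0.27 in Cre replicate 11. Among members of 1000 to 1500 bases (16) the deviation in Cre replicate 11 was 0.27, and among the 1088 other genes of that length it was 0.067. With the trend over exon length removed from all genes, the median of the members was -0.063, with 68 of 80 below 0, and that of all tested genes 0.0064. The part of gene length in the result was not tested beyond this.

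**Figure D3:**
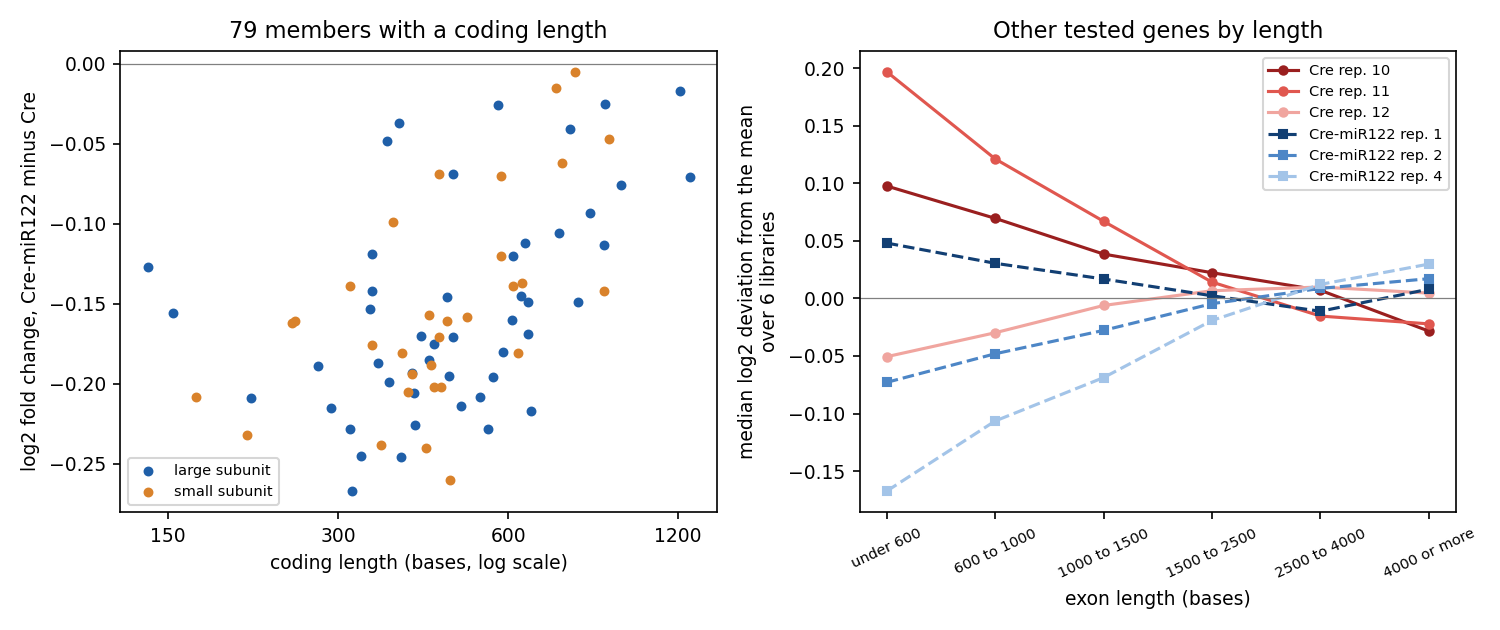
Left, log2 fold change against coding length (bases, log scale) for 79 members, coloured by subunit. Right, median log2 deviation from the mean over the 6 libraries for tested genes outside the family, in bins of exon length, 1 line per library. The lines spread for short genes, from 0.20 in Cre replicate 11 to -0.17 in Cre-miR122 replicate 4 under 600 bases.

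The members were also set against the summed count of the family in place of the whole library, a scaling that centres them by construction, so their side of 0 is not read. With that sum as library size edgeR called 0 of 80 members and 0 of 14354 genes (0.0%), and 0 members had an unadjusted p under 0.05. The values ran from -0.13 (SE 0.12) for Rpl36a to 0.12 (SE 0.13) for Rps4x on the log2 scale.

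Several members are paralogs with a narrower expression in other tissues. Rpl10l, a retrogene known from testis, had 0 counts in all 6 libraries, which allows up to 0.140 to 0.150 CPM in each (3 counts, counting error only). Rpl3l, known from heart and skeletal muscle, had 2, 3 and 6 counts with Cre and 3, 6 and 3 with Cre-miR122. Rpl39l had 3 counts at most. Rpl32l, a row for which no coding sequence was found in GENCODE M21, also had 3 at most. These 4 genes were not tested. The broadly expressed paralogs Rpl22l1, Rps27l and Rpl7l1 were set against their partners. Rps27l, a p53 target, made up 60.2% to 64.3% of the counts of the pair with Rps27. Rpl22l1 made up 31.6% to 34.6% of the pair with Rpl22, and Rpl7l1 17.1% to 20.5% of the pair with Rpl7. These shares are not corrected for exon length, which differs within each pair. Per kilobase of exon sequence Rps27l was at 61.7 CPM and Rps27 at 78.3 CPM. Rpl22l1 was at 77.6 and Rpl22 at 35.2 CPM per kilobase, and Rpl7l1 at 26.3 and Rpl7 at 327. The shares therefore do not tell which partner has more transcripts. The log2 ratio of Rps27l to Rps27 was 0.70 ± 0.078 with Cre and 0.72 ± 0.12 with Cre-miR122 (SD, n = 3 each). For Rpl22l1 it was -1.03 ± 0.032 and -1.04 ± 0.11, and for Rpl7l1 -2.15 ± 0.17 and -2.16 ± 0.059. The differences were 0.021, -0.014 and -0.012, each with a two-sided exact permutation p of 0.9 (0.9 adjusted over the 3 pairs), where 0.1 is the smallest p that 3 libraries against 3 allow.

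Rps4l, a row of 941 bases without introns (chr6:148354656-148355596, plus strand), was the lowest tested member at 22.6, 20.5 and 21.9 CPM with Cre and 24.0, 21.8 and 16.2 CPM with Cre-miR122. It carried 5.81% to 8.18% of the counts of the pair with Rps4x. How far reads of Rps4x enter this row was not tested. Its correlation with the median of the other members, 0.38, was the next lowest after Rps4x. Rows of pseudogenes named Rpl or Rps with a ps suffix held 91 to 131 counts per library in all. Pseudogenes under other names were not summed, so the reads on pseudogene rows as a whole were not measured.

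The pattern of names leaves out some ribosomal protein genes, which were looked at after the table was seen. Fau, which encodes a ubiquitin-like protein fused to a ribosomal protein, was at -0.16 on the log2 scale (SE 0.090), Rps3a1 at -0.15 (SE 0.10) and Rpl36al at -0.23 (SE 0.14). Rack1, a scaffold protein on the small subunit, was at -0.086 (SE 0.089). All 4 had their highest level in Cre replicate 11, as did 75 of the 80 tested members.

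Related gene lists were described beside the family. Of all tested genes, 50.6% lay below 0, 2.65% had an unadjusted p under 0.05 on the lower side and 2.76% on the higher, and the counts of each list stand beside these shares. Of 24 other messenger RNAs of the TOP class, 17 lay below 0 and 0 were called, with a median of -0.083 (-0.034 with Cre replicate 11 left out, -0.13 with Cre-miR122 replicate 1 left out) and a deviation of 0.12 in Cre replicate 11. An unadjusted p under 0.05 stood for 1 gene on the lower side and, on the higher side, for Eif2s3x, a subunit of an initiation factor (log2 fold change 0.53, SE 0.19). Eif2s3x, which is X-linked and known to escape X inactivation, was lowest in Cre replicate 10, at 24.6 CPM against 31.0 to 53.4 CPM elsewhere. Gas5, a non-coding host gene of small nucleolar RNAs with a TOP start, was at -0.37 (SE 0.17). Of 34 factors of ribosome assembly 26 lay below 0, with a median of -0.086 and 0 called. On leaving out 1 library this median ran from -0.19 (Cre replicate 12 left out) to -0.023 (Cre replicate 11 left out). The nucleolar proteins Nop56, Nop2 and Gnl3 had log2 fold changes of -0.37 (SE 0.18), -0.35 (SE 0.18) and -0.39 (SE 0.22), with their highest level in Cre replicate 11. The list deviated by 0.10 and 0.18 in Cre replicates 10 and 11 and by -0.16 in Cre replicate 12.

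The 9 genes listed as chaperones or other partners of ribosomal proteins had a median log2 fold change of -0.053, with 7 below 0. Ltv1 among them was at -0.26 (SE 0.12). On leaving out 1 library the median ran from -0.14 (without Cre-miR122 replicate 1) to -0.021 (without Cre replicate 10). The 14 genes of the RNA polymerase I machinery, which transcribes ribosomal RNA, had a median of -0.037, with 9 below 0. That median turned to 0.024 without Cre replicate 11 and stood at -0.12 without Cre replicate 12. Of 26 tested genes for mTORC1 and regulators of TOP messenger RNAs 10 lay below 0, with a median of 0.029 that ran from -0.00083 (without Cre-miR122 replicate 1) to 0.074 (without Cre-miR122 replicate 2). Among them were Eif4ebp1 and Eif4ebp2, translation repressors inactivated by mTORC1, at -0.21 (SE 0.10) and 0.25 (SE 0.13), and Deptor, an inhibitor of mTOR, at 0.17 (SE 0.092). None of these lists held a called gene, beside the 0 called of all tested genes, nor a gene with an unadjusted p under 0.05.

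Nuclear genes of mitochondria that are also short were set beside the family. The 77 mitochondrial ribosomal protein genes had a median log2 fold change of -0.087, with 62 below 0 and 4 lower at an unadjusted p under 0.05, beside the 50.6% and 2.65% of all tested genes. The 75 tested genes picked by symbol as subunits of oxidative phosphorylation had one of -0.10, with 65 below 0 and 1 lower at an unadjusted p under 0.05. Picking by symbol can bring in genes that are not subunits. No gene of either list was called. On leaving out 1 library the first median ran from -0.14 (without Cre replicate 12) to -0.046 (without Cre replicate 11) and the second from -0.16 (without Cre replicate 12) to -0.056 (without Cre-miR122 replicate 4). In both lists Cre replicate 10 was as high as or higher than replicate 11, with median deviations of 0.092 and 0.086 for the first list and of 0.14 and 0.076 for the second. In the cytosolic family replicate 11 stood at 0.26 and replicate 10 at 0.039. With the trend over exon length removed, the median log2 fold change was -0.021 for the mitochondrial ribosomal protein genes. It was 0.0025 for the oxidative phosphorylation genes and -0.063 for the cytosolic family. The difference between the lists was not tested.

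**Figure D4:**
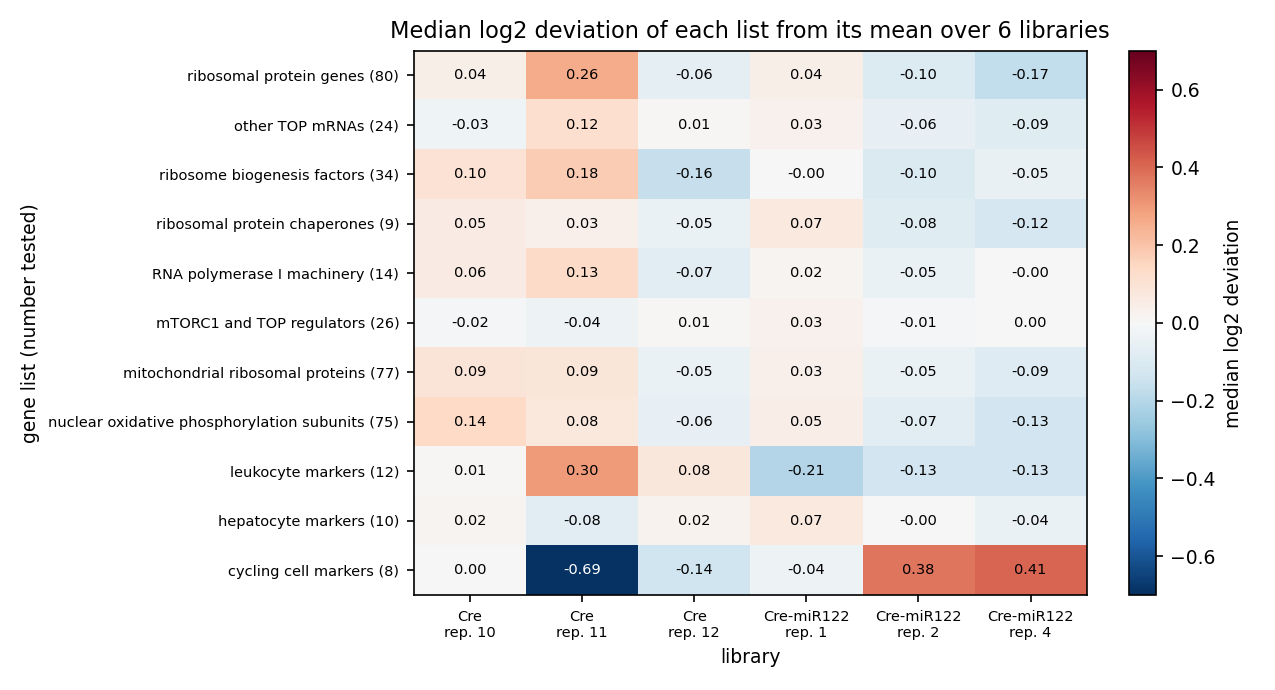
Median over the genes of each list of the log2 deviation from the mean over the 6 libraries, by library. The number in brackets is that of genes tested. The family stands at 0.26 in Cre replicate 11, where the leukocyte markers are at 0.30 and the cycling cell markers at -0.69.

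Marker lists of other cells differed in the library where they were highest. The 12 leukocyte markers, all detected and 0 called, had their highest summed level in Cre replicate 11, 374 CPM. It was 293 and 300 CPM in Cre replicates 10 and 12 and 243 to 298 CPM with Cre-miR122. Clec4f (190 CPM) and Cd74 (62.3 CPM) made up most of the sum in Cre replicate 11. S100a8, Cd3e, Adgre1 and Lyz2 had their highest level in other libraries, and the rest of the list in Cre replicate 11. The lowest sum of the list was in Cre-miR122 replicate 1, where the family stood at 0.040. Of the 12, 10 had a log2 fold change below 0 and 6 an unadjusted p under 0.05 on the lower side, beside 50.6% and 2.65% of all tested genes. The sum of 8 cycling cell markers, all detected and 0 called, was lowest in Cre replicate 11, at 116 CPM. It was 165 and 191 CPM in the other Cre libraries and 189 to 245 CPM with Cre-miR122. Of the 8, 7 had an unadjusted p under 0.05 on the higher side, beside 2.76% of all tested genes. The 10 hepatocyte markers also had their lowest sum in Cre replicate 11, 152439 CPM, of which Alb made up 93392 CPM. Alb, Trf, Fgb, Cps1 and Tat were each lowest in that library, but Apoa1, Apoa2 and Serpina1c were each highest there. The sum of 9 erythroid markers (0 called) did not follow Cre replicate 11. It was lowest in Cre replicate 10 (222 CPM) and highest in Cre replicate 12 (604 CPM), with 409 CPM in replicate 11 and 365 to 503 CPM with Cre-miR122. The share of mitochondrial counts was 8.08% in Cre replicate 10 and 5.93% to 6.67% in the other libraries. The part of these cells in the difference of the ribosomal protein genes was not tested.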

How the data were processed

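Reads had been handled with STAR (2.7.9a), featureCounts (2.0.1) and the mouse build GRCm38, also called mm10, per the submitters' processing notes. Strand and multi-mapping settings are not in the sources used. The authors deposited raw read counts per gene and exon lengths in bases. 5 columns matching no sample were not used. Members and lists were chosen with earlier results of these data known. Counts were tested with edgeR 4.0.16 (R 4.3.3), quasi-likelihood F test, two-sided, with TMM scaling, filterByExpr, group as the only term and Benjamini-Hochberg adjustment over 14374 genes (threshold 0.05). Standard errors derive from the F statistic. CPM (counts scaled to a common library size) uses TMM-scaled library sizes, and deviations use log2 CPM with a prior count of 2. Ratios of paralogs added 0.5 counts. Trends over length were fitted with loess (span 0.5). The fit was tested on simulated data. Named members were the 4 with the smallest p in each direction, the 5 highest and 5 lowest per kilobase, the 5 with the largest spread, the 4 farthest on each side from the median fold change, the paralogs, a fixed set of 11 by role, and up to 3 genes per related list by p. Other names in the text were chosen after values were seen. Alternatives were other scalings, filters and tools (DESeq2 1.42.0, limma 3.58.1), a sex term, length and leaving out each library. Depths of 20340994 to 20817837 counts limit the lowest members. Some items are not reported here by name.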

Additional observations from a re-analysis of the deposited data

How the results depend on the processing

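No paired analysis was possible because the groups share no replicate number. The median log2 fold change of the ribosomal protein genes ran from -0.23 without Cre replicate 12 to -0.067 without Cre replicate 11. Over 9 other scalings, filters, tools and the sex term it ran from -0.19 to -0.15. The sex term set Cre replicate 10 alone apart, so it amounts to leaving that library out (-0.1857 with either). No member was called under any setting that gave calls. Over all genes 2 were called with no filter and 3 with DESeq2, against 0, and the cause was not tested.

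Without Cre replicate 11, 12 members turned positive: Rpl5, Rpl9, Rpl21, Rpl22, Rpl22l1, Rpl30, Rplp0, Rps3, Rps6, Rps9, Rps14 and Rps19, the last from -0.14 to 0.010. The cause was not tested. Among the members named by rule, the lowest and highest values on leaving out 1 library were -0.082 and 0.031 for Rpl22, -0.028 and 0.021 for Rps4x, -0.11 and 0.078 for Rps3, -0.043 and 0.0016 for Rpl3, -0.068 and 0.025 for Rpl5, -0.12 and 0.020 for Rpl22l1, -0.13 and 0.0035 for Rplp0, and -0.12 and 0.041 for Rps6. The highest came without Cre replicate 11 for Rpl22, Rps3, Rpl5, Rpl22l1, Rplp0 and Rps6. Rps4l stood at 0.081 without Cre-miR122 replicate 4, and Rps4x at 0.00014 with no filter. The differences in log2 ratio of paralogs ran from -0.078 to 0.086 for Rpl7l1 to Rpl7, -0.077 to 0.023 for Rpl22l1 to Rpl22 and -0.044 to 0.080 for Rps27l to Rps27.

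With 3 libraries a group, 1 of which (Cre replicate 11) stands apart, and no gene called, differences of the size seen here were not told from the spread between libraries.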
